A study of Bos taurus with 24 samples.

Results

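AMH, the anti-Müllerian hormone, and AMHR2, the receptor that binds it, were followed across bovine granulosa cells at successive stages of follicle growth. The members were chosen by name, as 2 of the 27607 genes of the deposited count table, and both passed the filter on low counts. Both symbols were assigned by position, since the table gives Ensembl identifiers only. RNA was sequenced in 24 libraries of cow (Bos taurus) cells. Granulosa cells of secondary follicles gave 4 (secondary_GC). The antral groups were 5 libraries of cumulus cells from early antral follicles (early_CC), 5 of mural granulosa cells from early antral follicles (early_MGC), 5 of cumulus cells from late antral follicles (late_CC) and 5 of mural granulosa cells from late antral follicles (late_MGC). The study's design text sets these cells against their capacity to rebuild projections onto the oocyte. The labels name no breed, age, hormone treatment or genotype and do not say whether replicates came from separate animals, so p-values measure only the spread between these samples.

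AMH is a hormone of the TGF-beta family that granulosa cells of growing follicles secrete. In the ovary it is known to restrain the recruitment of primordial follicles and the response of growing follicles to follicle-stimulating hormone, and its blood level serves as a marker of the follicle reserve. AMHR2 is its dedicated type II receptor: with AMH bound, it activates a type I receptor shared with the bone morphogenetic proteins (ACVR1, BMPR1A or BMPR1B), which phosphorylates SMAD1, SMAD5 and SMAD9. Cumulus cells are the granulosa cells around the oocyte, and mural cells line the follicle wall.

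AMH (ENSBTAG00000014955) lies on chromosome 7 at 21401483 to 21404348 on the plus strand of ARS-UCD1.2, in 5 exons with 1816 exonic bases. Its first exon overlaps the end of SF3A2, a splicing factor gene on the same strand, by 200 exonic bases (11% of the exonic bases of AMH). This overlap is in the counted annotation: the RefSeq model of SF3A2 on the later assembly ends at 21400795, before the start of AMH. The counting command in the file header holds no option to count reads that fall on both genes. JSRP1 follows 180 bases downstream on the minus strand, and counting did not use strand. AMHR2 (ENSBTAG00000018524) lies on chromosome 5 at 26591483 to 26597710 on the minus strand, in 11 exons with 2034 exonic bases. The RefSeq model of AMHR2 on the later assembly reaches 2230 bases further at its 3′ end, so the counted exons may miss part of the transcript. PRR13 and SP1 are its neighbours, at distances of 19869 and 10067 bases, and overlap none of its exons. The RefSeq model of SP1 reaches 9443 bases further towards AMHR2, to 26598335, and that of AMHR2 ends at 26598237.

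Libraries held between 8379801 and 31762400 counts (median 18070281.5). FSHR, the receptor for follicle-stimulating hormone that defines granulosa cells, was between 200.5 and 424 CPM (reads scaled to a library of 1000000) in 23 libraries. In late_MGC 3 it was 10.6 CPM. The 7 granulosa markers summed to 374.5 CPM in late_MGC 3 against 4464 to 7129 in the other late_MGC libraries, with FOXL2 at 0. All 6 stroma markers were detected there and summed to 2107 CPM against 11.6 to 28.6. The theca marker CYP17A1 had 0.161 CPM there, the level of 3 counts in that library, and 0 in every other library. Of the other theca markers, STAR was 123 CPM there against 1.74 to 4.71 in the other late_MGC libraries, and INSL3 was 1.88 against 190.4 to 349.4. The theca list summed to 125.4 CPM there against 193.4 to 352.5. Besides late_MGC 3, whose mean r with its own group was 0.870, late_CC 3 (0.915) and early_MGC 4 (0.921) correlated least with theirs. In late_CC 3 the granulosa markers summed to 2438 CPM against 10500 to 18110 in the other late_CC libraries. That sum was above every secondary_GC library (at most 2257 CPM) and every early_MGC library (at most 1432). INHBA was 191 CPM in late_CC 3 against 4890 to 11330, while FSHR was 301 against 329.9 to 397.1. FOXL2, at 1.38 CPM, lay within the range of the other late_CC libraries (0.491 to 4.29). The stroma list, at 118.7 CPM, also lay within theirs (73.8 to 126). Each result on AMH or AMHR2 is therefore given with and without late_MGC 3.

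AMH was an abundant transcript in every group and stood highest in cumulus cells of late antral follicles. In secondary_GC its libraries held 212, 367, 125 and 255 CPM, a mean of 239.8 ± 100.4 (SD, n = 4). In early_CC they held 256, 308, 343, 472 and 290.0 CPM, a mean of 334 ± 83.4 (SD, n = 5). In early_MGC they held 190.0, 209, 157, 130 and 238 CPM, a mean of 185 ± 42.6 (SD, n = 5). Every early_CC library was thus above every early_MGC library, while secondary_GC spanned both. In late_CC the values were 526, 639, 208, 776 and 799.5 CPM, a mean of 589.8 ± 240.2 (SD, n = 5), where late_CC 3 was the low library. In late_MGC they were 147, 234, 2.73, 209.6 and 250.5 CPM, a mean of 169 ± 101 (SD, n = 5), or 210.3 ± 45.15 (SD, n = 4) without late_MGC 3. The 51 AMH counts of late_MGC 3 compare with 3488 to 5281 in the other late_MGC libraries, the same library in which FSHR was low.

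AMHR2 was a weakly expressed transcript that was lower in both late antral groups. Its secondary_GC libraries held 8.14, 8.30, 6.305 and 9.645 CPM, a mean of 8.10 ± 1.37 (SD, n = 4). In early_CC they held 7.30, 6.84, 7.23, 3.32 and 9.56 CPM, a mean of 6.85 ± 2.25 (SD, n = 5). In early_MGC they held 4.69, 7.83, 3.12, 9.55 and 11.4 CPM, a mean of 7.31 ± 3.40 (SD, n = 5). These groups overlapped throughout, with the widest spread in early_MGC. In late_CC the values were 1.66, 1.92, 0.277, 0.967 and 1.62 CPM, a mean of 1.29 ± 0.665 (SD, n = 5). In late_MGC they were 0.661, 0.363, 0.428, 0.601 and 1.38 CPM, a mean of 0.686 ± 0.405 (SD, n = 5), or 0.750 ± 0.437 (SD, n = 4) without late_MGC 3. Every late antral library was below every library of the earlier stages. The share of all tested genes whose libraries separate in this way was not counted, for this or any other separation of groups given here. The late values rest on few reads, 4 to 39 counts per library in late_CC and 6 to 29 in late_MGC, so each carries a large counting error. In these bulk samples fewer cells of a type and less RNA per cell cannot be told apart.

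Markers of other cell types were read beside AMHR2. The endothelial list summed to 26.4 to 33.1 CPM in secondary_GC, 11.1 to 25.97 in early_CC, 23.3 to 44.6 in early_MGC, 3.87 to 11.3 in late_CC and 2.09 to 9.59 in late_MGC, so like AMHR2 it was low at the late stage. In the 3 earlier groups most of that sum was FLT1, a receptor of vascular growth factor, which fell in both cell types (-2.60 ± 0.43 in cumulus and -4.20 ± 0.47 in mural cells, edgeR, adjusted p = 4.31e-05 and 1.31e-06). The defining endothelial genes CDH5 and PECAM1 averaged at most 0.0578 CPM in any group, with CDH5 at 0 in all 3 earlier groups. The 10 oocyte markers summed to at most 3.88 CPM in any library, with BMP15 at 0 in all, and the 6 blood cell markers to at most 7.399 CPM, with HBB at 0 in all. The stroma list summed to 35.0 to 134 CPM in secondary_GC, 67.8 to 686 in early_CC, 40.5 to 149 in early_MGC and 73.8 to 126 in late_CC. In late_MGC it was 11.6 to 28.55 CPM apart from late_MGC 3, below every early_MGC library. Without late_MGC 3 the matrix gene DCN fell with AMHR2 in mural (-4.06 ± 0.80, edgeR, adjusted p = 0.000993) and cumulus cells (-6.02 ± 0.83; 7.83e-06). COL3A1 (-3.24 ± 1.2, edgeR, adjusted p = 0.0267) and LUM (-2.31 ± 0.61; 0.00357) fell in cumulus cells, and PDGFRA rose in both cell types (1.84 ± 0.55 in mural, 0.0162; 4.07 ± 0.51 in cumulus cells, 7.54e-07). The part of such cells in the AMHR2 values was not tested. The theca list summed to 32.1 to 601.7 CPM, mostly INSL3 except in late_MGC 3, where STAR had 123 of 125 CPM.

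**Figure D1:**
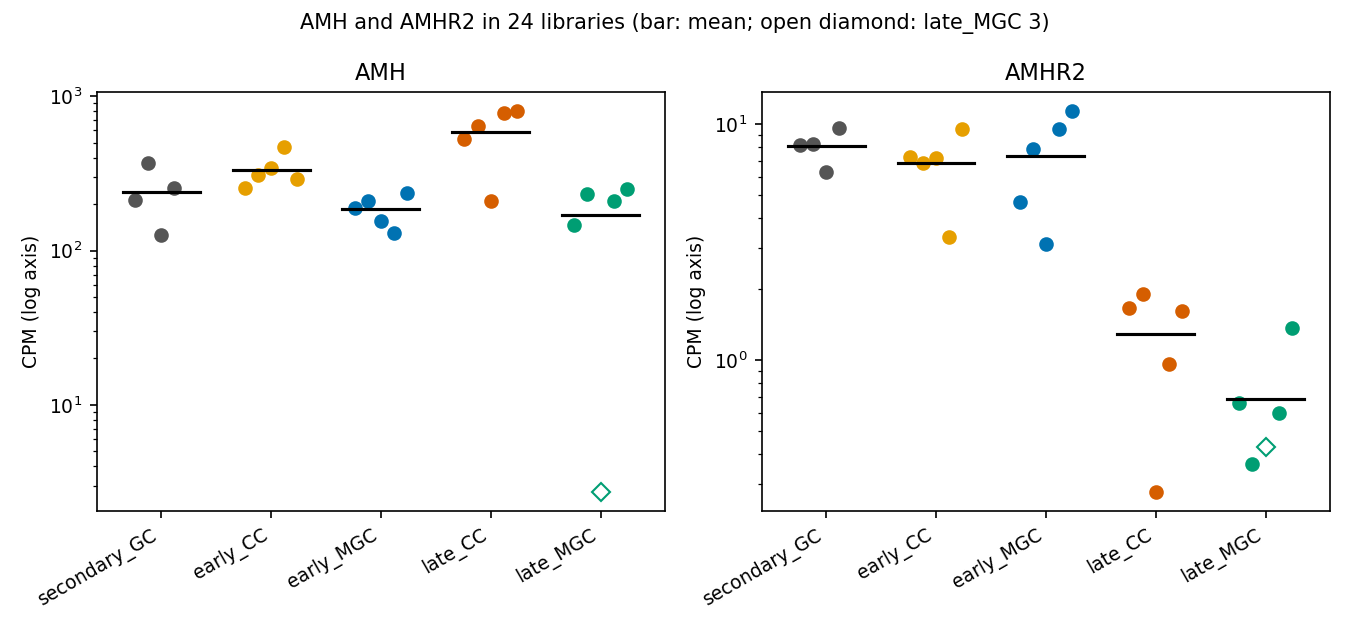
AMH (left) and AMHR2 (right) in each of the 24 libraries, in CPM on a log axis, with the group mean as a bar; the open diamond is late_MGC 3. AMH was 2.73 CPM in late_MGC 3 and at least 125 CPM in all others, while the 10 late antral libraries held at most 1.92 CPM of AMHR2 and the 14 earlier ones at least 3.12.

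The order of the AMH means was late_CC, early_CC, secondary_GC, early_MGC and late_MGC. Without late_MGC 3 the late_MGC mean of 210.3 CPM stood above that of early_MGC, and early_MGC came last. No neighbours in that order differed beyond their spread when all 24 libraries were fitted together. The order of the AMHR2 means was secondary_GC, early_MGC, early_CC, late_CC and late_MGC, and early_CC with late_CC was the 1 pair of neighbours that differed. Per kilobase of exon, AMH ranked 290 among the 14298 tested genes in late_CC, and between 685 and 1022 in the other groups. AMHR2 ranked 7711 to 8076 in the 3 earlier groups, and 11772 in late_CC and 12207 in late_MGC.

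The first comparisons ask what changed as follicles formed an antrum. Neither member passed the test in early_MGC against secondary_GC, where 9.1% of all tested genes were called, or in early_CC against secondary_GC, where 1.99% were. Calls used the quasi-likelihood test of edgeR with Benjamini-Hochberg adjustment over all tested genes, at an adjusted p under 0.05. AMH differed by a log2 fold change of -0.25 ± 0.61 (SE) in mural cells (edgeR, adjusted p = 0.844). In cumulus cells its difference was 0.52 ± 0.61 (edgeR, adjusted p = 0.743), and 16 of 20 pairs of libraries had the higher level in early_CC. AMHR2 differed by -0.01 ± 0.43 in early_MGC (edgeR, adjusted p = 0.995) and by -0.21 ± 0.43 in early_CC (0.864). The 95% intervals of the AMHR2 differences, -0.90 to 0.88 and -1.10 to 0.67 on the log2 scale, leave room for changes of about 2-fold. Without late_MGC 3, whose spread enters the shared error, neither member was called in either comparison (edgeR, adjusted p = 0.322 to 0.993; 13.4% and 5.25% of genes called).

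From early to late antral follicles AMHR2 fell in both cell types. In mural cells it was 9.58-fold lower in late_MGC than in early_MGC, a log2 fold change of -3.26 ± 0.46 (SE, edgeR, adjusted p = 2.14e-05), with the late library lower in all 25 pairs; 19.1% of tested genes were called there, 9.3% as lower. In cumulus cells it was 5.23-fold lower in late_CC than in early_CC, -2.39 ± 0.44 (edgeR, adjusted p = 0.000107), again in all 25 pairs, where 45.2% of genes were called, 22.7% as lower. Without late_MGC 3 the mural difference was -3.10 ± 0.48 (edgeR, adjusted p = 3.20e-05; 24.1% of genes called) and the cumulus one -2.38 ± 0.42 (4.19e-05; 49.9% called). The interaction of stage and cell type, the cumulus change minus the mural change, was 0.87 ± 0.60 for AMHR2 (edgeR, adjusted p = 0.285) and 0.72 ± 0.60 without late_MGC 3 (0.366), so a different size of the fall in the 2 cell types was not shown. Set against secondary follicles, AMHR2 was 9.64-fold lower in late_MGC (-3.27 ± 0.47, edgeR, adjusted p = 1.19e-05; 31.8% of genes called, 15.3% as lower) and 6.06-fold lower in late_CC (-2.60 ± 0.46; 7.31e-05; 46% called, 23.1% as lower). Without late_MGC 3 the log2 differences were -3.11 ± 0.49 in late_MGC (edgeR, adjusted p = 2.05e-05, with 35.7% of genes called) and -2.59 ± 0.43 in late_CC (edgeR, adjusted p = 2.63e-05, with 50.3%). The comparisons with secondary follicles share libraries with those by stage and add no independent count. AMHR2 kept its call in these 4 comparisons with each of their libraries left out in turn and under every other setting in which it was tested.

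AMH was not called lower in either late antral group. In mural cells the late and early antral libraries differed by 0.02 ± 0.57 on the log2 scale (edgeR, adjusted p = 0.988), and by 0.33 ± 0.28 without late_MGC 3 (0.414). In cumulus cells the difference was 0.80 ± 0.58 (edgeR, adjusted p = 0.265), with the late library higher in 20 of 25 pairs. Without late_MGC 3 the estimate was again 0.80, a 1.75-fold higher level in late_CC, with an SE of 0.27 (edgeR, adjusted p = 0.0138), and AMH was then called. That library belongs to neither cumulus group: it widens the spread that all groups share in the fit. The groups overlapped through late_CC 3, at 208 CPM of AMH, where the summed granulosa markers were also low but FSHR was 301 CPM. The part of that library in the result was not tested beyond leaving it out. Without all 3 libraries that stood apart the difference was 1.01 (edgeR, adjusted p = 0.000672). The interaction was 0.79 ± 0.81 (edgeR, adjusted p = 0.492; 31.4% of genes called) and 0.47 ± 0.39 without late_MGC 3 (0.356; 36.4% called), so a different AMH change in cumulus and mural cells was not shown.

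Between cell types, AMH was called higher in cumulus than in mural cells of late antral follicles, and of early ones too once late_MGC 3 was left out, while AMHR2 was called in neither stage. In late antral follicles AMH was 2.93-fold higher in late_CC than in late_MGC, 1.55 ± 0.59 (SE, edgeR, adjusted p = 0.0393), with the cumulus library higher in 22 of 25 pairs; 39.7% of tested genes were called, 18.9% as higher. Without late_MGC 3 it was 2.35-fold higher, 1.24 ± 0.29 (edgeR, adjusted p = 0.00115; 41.8% of genes called), in 17 of 20 pairs. The AMH call was lost without late_CC 2, 4 or 5 or late_MGC 1 or 4 (edgeR, adjusted p = 0.0526 to 0.0802), each time with late_MGC 3 still in the fit. It was also lost without a filter on low counts (1.48, edgeR, adjusted p = 0.0815) and with the compared groups alone (1.56; 0.137), and limma-voom gave a larger difference of 2.41 (adjusted p = 0.0165). In early antral follicles AMH stood 0.77 ± 0.58 higher in early_CC than in early_MGC (edgeR, adjusted p = 0.413; 13.1% of genes called), in all 25 pairs of libraries. Without late_MGC 3, a library of neither group, the SE of AMH was 0.27 and its 1.70-fold difference was called (edgeR, adjusted p = 0.0441; 18.1% of genes called). AMHR2 differed between early_CC and early_MGC by -0.20 ± 0.41 (edgeR, adjusted p = 0.789), and by -0.20 ± 0.39 without late_MGC 3 (edgeR, adjusted p = 0.761). Between late_CC and late_MGC it differed by 0.67 ± 0.45 (edgeR, adjusted p = 0.241), and by 0.52 ± 0.46 without late_MGC 3 (0.386). Against secondary follicles AMH differed by 1.32 ± 0.63 in late_CC (edgeR, adjusted p = 0.0900) and by -0.23 ± 0.61 in late_MGC (0.804). Without late_MGC 3 these values were 1.32 ± 0.29 (edgeR, adjusted p = 0.000498; 50.3% of genes called) and 0.09 ± 0.30 (0.846; 35.7% called), so AMH in late_CC was then called.

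**Figure D2:**
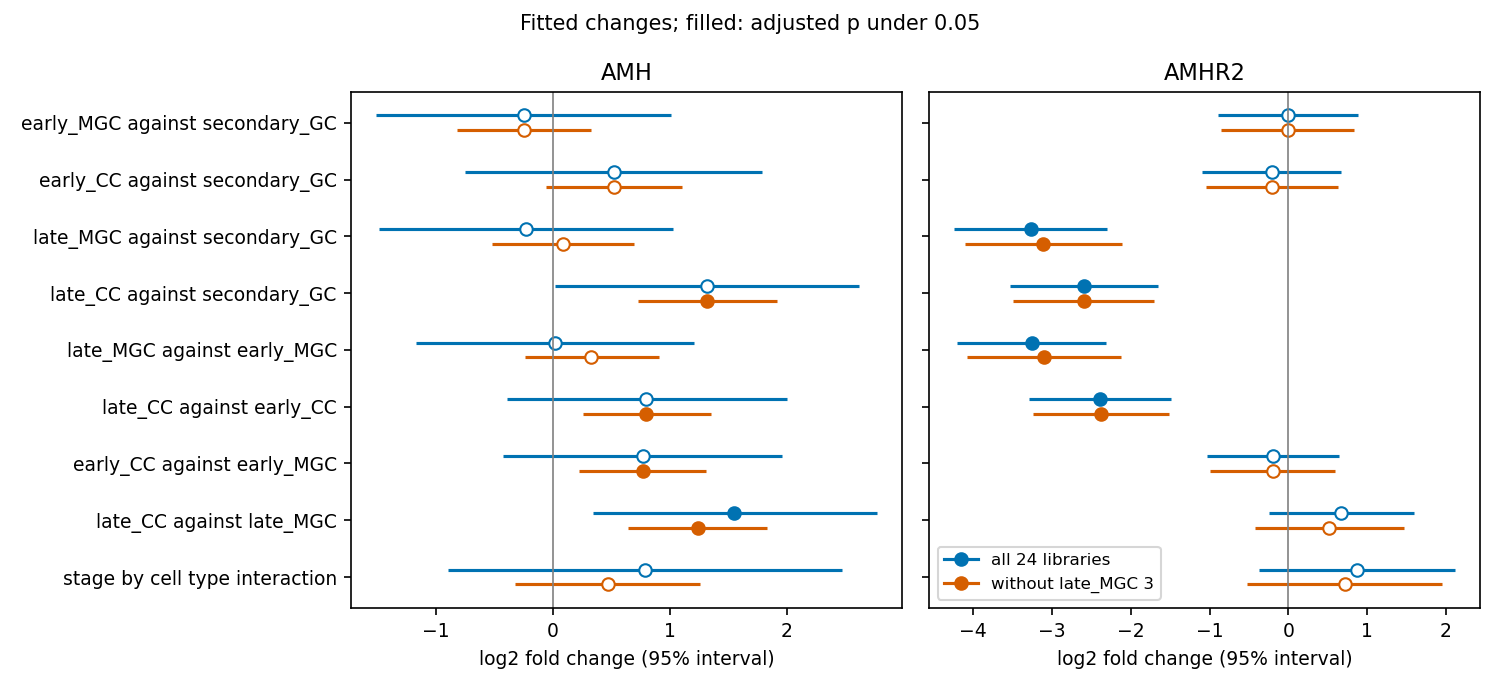
Log2 fold changes of AMH (left) and AMHR2 (right) with 95% intervals in the 8 comparisons and the interaction, for all 24 libraries and without late_MGC 3; filled points have an adjusted p under 0.05. The AMH intervals narrow without that library and the number of AMH calls goes from 1 to 4, while AMHR2 keeps its 4 calls.

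Hormone transcript per receptor transcript was higher at the late antral stage in every library but late_MGC 3. As a ratio of CPM per kilobase, AMH to AMHR2 ran from 22.3 to 49.5 in secondary_GC, from 34.0 to 159 in early_CC and from 15.2 to 56.3 in early_MGC. It ran from 355 to 899 in late_CC. In late_MGC it was 250.0, 722, 391 and 204 in 4 libraries, and 7.14 in late_MGC 3. The 9 late antral libraries other than late_MGC 3 were thus above all 14 earlier ones. Since AMHR2 is the denominator and had as few as 4 counts, single ratios of the late libraries carry a large counting error.

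**Figure D3:**
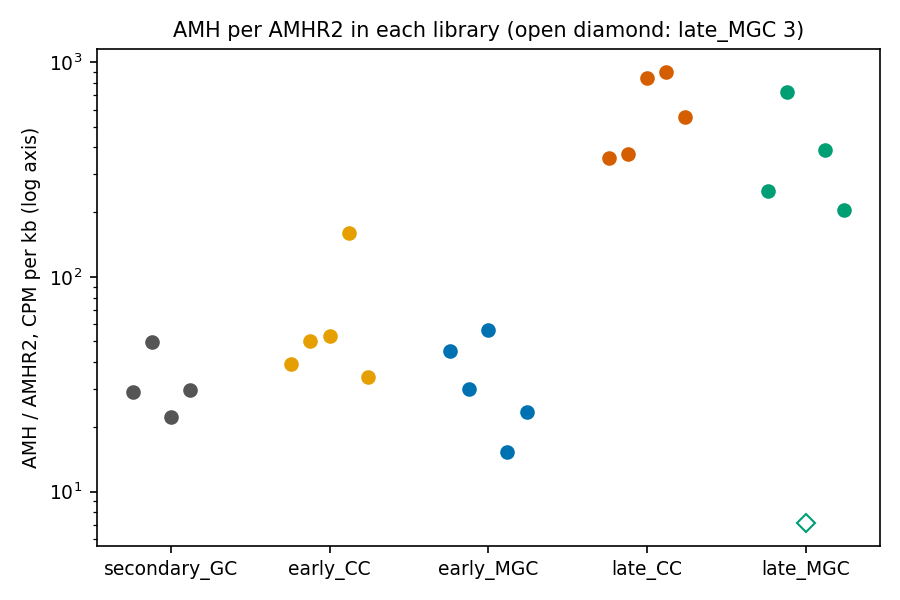
Ratio of AMH to AMHR2, each in CPM per kilobase of exon, in the 24 libraries on a log axis; the open diamond is late_MGC 3. Late antral libraries lie between 204 and 899 apart from late_MGC 3 at 7.14, and the earlier libraries between 15.2 and 159.

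None of the neighbouring genes had the same set of calls as its member. SF3A2, whose last exon overlaps AMH in the counted annotation, had means of 9.81 to 18.2 CPM and was called in none of the 8 comparisons. It was called in none without late_MGC 3 either. JSRP1 had means of 26.5 to 51.4 CPM and was called in none with all 24 libraries, but like AMH it was low in late_MGC 3 (1.34 CPM, against 61.2 to 68.2 in the other late_MGC libraries). Without that library JSRP1 was called in 6 of the 8 comparisons: it rose in mural cells by stage (1.45 ± 0.26, edgeR, adjusted p = 0.000205), fell in cumulus cells (-0.68 ± 0.25; 0.0239) and was lower in late_CC than in late_MGC (-1.35 ± 0.26; 0.000156). The others were early_CC against early_MGC (0.78 ± 0.25, edgeR, adjusted p = 0.0287), early_MGC against secondary_GC (-0.78 ± 0.26; 0.0463) and late_CC against secondary_GC (-0.68 ± 0.26; 0.0311). PRR13, beside AMHR2, fell in cumulus cells from early to late antral follicles (-1.28 ± 0.27, edgeR, adjusted p = 0.000483). It was also lower in late_CC than in late_MGC (-0.81, edgeR, adjusted p = 0.0195), a call lost without late_CC 3 or 4 or late_MGC 1 (0.0502 to 0.0792). SP1, a general transcription factor on its other side, rose in early_MGC against secondary_GC (0.86 ± 0.21, edgeR, adjusted p = 0.0123), a call lost without secondary_GC 4 (0.0629).

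Besides AMHR2, AMH signals through type I receptors and SMADs. The list of 13 receptors and SMADs also holds other type II receptors of the family (BMPR2, ACVR2A, ACVR2B and TGFBR2) and the inhibitory SMAD6 and SMAD7. Of the 13, 11 were tested. From early to late antral follicles 3 rose and 1 fell in cumulus cells, where 45.2% of all tested genes were called, and 1 rose in mural cells, where 19.1% were; their median log2 changes were 0.34 and 0.11, against 0.04 and 0.05 over all tested genes. BMPR1A, a type I receptor that AMH can use, rose in cumulus cells from 14.9 ± 1.56 to 24.8 ± 4.32 CPM (SD, n = 5 each; 0.73 ± 0.17, edgeR, adjusted p = 0.000883). BMPR1B, another of them, fell there from 26.9 to 8.71 CPM on average (-1.58 ± 0.52, edgeR, adjusted p = 0.0169; 0.05 and not called without late_CC 1) and was lower in late_CC than in late_MGC (-2.99 ± 0.54; 0.000164). Its level in late_CC 3 was 24.2 CPM against 3.75 to 6.48 in the other late_CC libraries, and without late_CC 3 the log2 differences were -2.48 and -3.89. Without late_MGC 3 the latter was -2.39. ACVR1, the remaining type I receptor, rose in mural cells by 1.94 ± 0.45 (edgeR, adjusted p = 0.00333), with 21 CPM in late_MGC 3 against 2.57 to 5.65 in the other late_MGC libraries; it rose by 1.2 without that library and was still called. Without late_MGC 3, 2 of the 11 rose in mural cells (ACVR1 and SMAD4) and 2 fell (SMAD9 and TGFBR2), with 24.1% of all genes called. SMAD5 rose in cumulus cells (0.78 ± 0.17, edgeR, adjusted p = 0.000433). ACVR2B also rose there (0.97 ± 0.36, edgeR, adjusted p = 0.0317), a call lost without early_CC 1, 4 or 5 or late_CC 3 (0.0651 to 0.136). SMAD1, BMPR2 and ACVR2A were called in none of the 4 antral comparisons, that is by stage within each cell type and by cell type within each stage. Between cell types, 3 of the 11 were lower in early_CC than in early_MGC (BMPR1A, BMPR1B and SMAD5; 13.1% of all genes called) and 2 were lower in late_CC than in late_MGC (BMPR1B and SMAD4; 39.7% called). Of these, BMPR1B in early antral follicles was lost without any early_CC library, early_MGC 4 or early_MGC 5 (edgeR, adjusted p = 0.0589 to 0.142), and SMAD4 without late_CC 2 or late_MGC 2 (0.0561 and 0.0633). Without late_MGC 3 the same genes were called lower at both stages. SMAD9 and TGFBR2 were then called higher in late_CC than in late_MGC, where 41.8% of all genes were called.

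Against secondary follicles, 1 of the 11 receptors and SMADs was called higher in early_MGC and 0 were called in early_CC, beside 9.1% and 1.99% of all genes; TGFBR2 was called in early_CC without late_MGC 3. In late_MGC 4 rose (ACVR1, BMPR1A, SMAD4 and SMAD5; 31.8% of all genes called), and in late_CC 2 rose (BMPR1A and SMAD5) and BMPR1B fell (46% called). Without late_MGC 3, SMAD5 was not called in late_MGC, where SMAD9 and TGFBR2 were called lower, and ACVR1 and TGFBR2 were also called higher in late_CC. The gene that rose in early_MGC was BMPR1A (0.67 ± 0.18, edgeR, adjusted p = 0.0198), whose call was lost without secondary_GC 2 or 4 (0.0607 to 0.0813).

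The ID genes, inhibitors of basic helix-loop-helix factors and standard targets of SMAD1 and SMAD5 signalling, were all tested. Of the 4, 3 fell in cumulus cells by stage, where 22.7% of all tested genes were called lower, and 2 fell in mural cells, where 9.3% were. None rose, and the medians were -2.49 and -1.69. ID4 was not called in either cell type with all 24 libraries and was called lower in mural cells without late_MGC 3. ID1 fell from 43.1 to 0.895 CPM on average in cumulus cells (-5.57 ± 0.68, edgeR, adjusted p = 2.52e-06) and by 2.69 ± 0.57 on the log2 scale in mural cells (edgeR, adjusted p = 0.00222). Its late_MGC libraries ran from 1.56 to 25.7 CPM and early_MGC from 25.4 to 188, so these groups met at late_MGC 1; without it the mural change was -3.55. ID3 fell by 2.47 ± 0.46 in cumulus cells (edgeR, adjusted p = 0.000159) and by 1.58 ± 0.44 in mural cells (0.0147), where the call was lost without early_MGC 5 (-0.91; 0.0928). ID2 fell in cumulus cells by 1.26 ± 0.32 (edgeR, adjusted p = 0.00256). ID1 and ID3 were also lower in late_CC than in late_MGC, by -3.73 ± 0.65 (edgeR, adjusted p = 0.000108; -2.88 without late_MGC 1) and -1.78 ± 0.45 (0.00315). These genes answer to bone morphogenetic proteins as well as to AMH, and the part of either was not tested.

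Among follicular ligands of the same family that act on granulosa cells, 3 of 6 were tested. BMP2 was called higher in late_MGC than in early_MGC (5.62 ± 1.88, edgeR, adjusted p = 0.0409), and BMP2 and BMP4 lower in late_CC than in late_MGC (-5.58 ± 1.87 and -4.60 ± 1.40; 0.0226 and 0.0124). These calls rest on late_MGC 3, with 76.7 CPM of BMP2 and 44.0 of BMP4 against at most 0.24 and 0.361 in the other late_MGC libraries. Without it the log2 differences were -0.98, 1.12 and 0.27 and none of these was called (edgeR, adjusted p = 0.547 to 0.833). BMP4 was then called lower in late_MGC than in early_MGC (-2.68 ± 0.9, edgeR, adjusted p = 0.0299, with 24.1% of all genes called). It was also called lower than in secondary_GC in late_MGC (-2.65 ± 0.92, edgeR, adjusted p = 0.0259) and late_CC (-2.38 ± 0.84, edgeR, adjusted p = 0.0204). In these 35.7% and 50.3% of all genes were called.

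The transcription factors described as acting on the AMH or AMHR2 gene in gonads did not move as a block. Of 13 regulators, 12 were tested. From early to late antral follicles 5 rose and 2 fell in cumulus cells, where 45.2% of all tested genes were called, and 2 rose and 1 fell in mural cells, where 19.1% were. Their medians were 0.59 and 0.05. SOX8 had 0 counts in every group, and SOX9, which drives AMH in the testis, averaged 0.162 to 0.486 CPM. WT1, a zinc finger factor of the early gonad, fell in both cell types, by 3.40 ± 0.30 on the log2 scale in cumulus cells (edgeR, adjusted p = 1.19e-08) and by 3.40 ± 0.30 in mural cells (2.66e-08). Its libraries ranged from 29.6 to 82.9 CPM before the late antral stage and from 2.17 to 7.33 CPM in it, with no overlap. WT1 and AMHR2 were thus both low in late antral libraries, late_MGC 3 included.

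GATA4, which binds the AMH promoter, had the order of AMH between cell types in late follicles. It rose in cumulus cells (0.80 ± 0.24, edgeR, adjusted p = 0.00772) and was higher in late_CC than in late_MGC (1.37 ± 0.24; 7.25e-05). In late_CC it had 201, 212, 96.7, 297 and 269.9 CPM, and in late_MGC 81.2, 67.0, 50.3, 74.2 and 80.4, so each late_CC library was above each late_MGC library. NR5A1, the steroidogenic factor that cooperates with GATA4, was higher in late_CC than in late_MGC (1.02 ± 0.27, edgeR, adjusted p = 0.00429) and did not pass by stage. Its late_MGC libraries held 39.3, 52.7, 9.53, 39.4 and 41.3 CPM, lowest in late_MGC 3 as for AMH. NR5A2, its relative in granulosa cells, rose by 2.1 ± 0.29 in cumulus cells (edgeR, adjusted p = 3.85e-06) and by 1.54 ± 0.28 in mural cells (0.000427). GATA6 rose in cumulus cells (1.89 ± 0.30, edgeR, adjusted p = 2.48e-05) and was higher in late_CC than in late_MGC (1.33 ± 0.30; 0.000979). NR0B1, a repressor of NR5A1, fell in cumulus cells (-2.93 ± 0.65, edgeR, adjusted p = 0.000900) and was the 1 regulator lower in late_CC than in late_MGC (-3.50 ± 0.66; 0.000241). It held 6.01 CPM in late_CC 1 against 0.295 to 1.38 in the other late_CC libraries, and without late_CC 1 these log2 differences were -4.13 and -4.71.

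**Figure D4:**
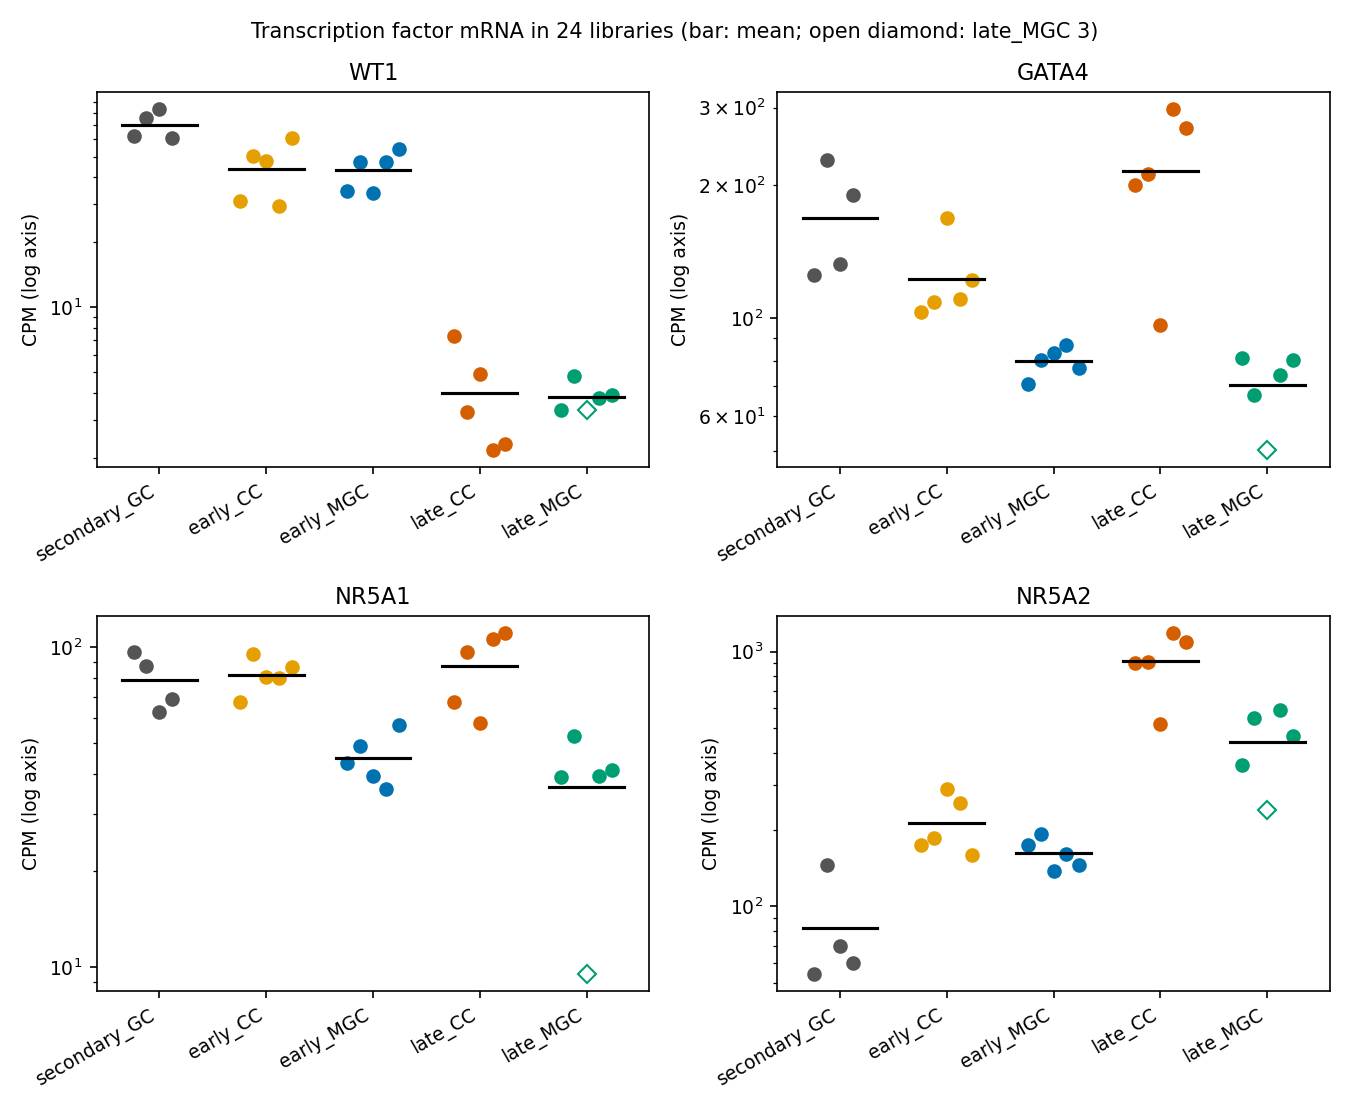
WT1, GATA4, NR5A1 and NR5A2 in each of the 24 libraries, in CPM on a log axis, with the group mean as a bar; the open diamond is late_MGC 3. WT1 lies between 2.17 and 7.33 CPM in late antral libraries and between 29.6 and 82.9 CPM in the others, and NR5A1 is lowest in late_MGC 3 at 9.53 CPM.

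In all, 7 of the 12 regulators were higher in late_CC than in late_MGC and 1 was lower; of all tested genes 39.7% were called there and 18.9% were higher. The other 4 higher ones were NR5A2 (0.83 ± 0.28, edgeR, adjusted p = 0.0188), CTNNB1 (0.80 ± 0.17; 0.000456), ESR2 (1.37 ± 0.40; 0.00807) and FOXL2 (1.91 ± 0.71; 0.0347). FOXL2, the factor that maintains granulosa identity, had at most 4.29 CPM in any library, and its call was lost without late_CC 1, 4 or 5 or late_MGC 1 or 5 (edgeR, adjusted p = 0.05 to 0.1). CTNNB1, the transcriptional partner beta-catenin, also rose by stage in cumulus (0.93 ± 0.17, edgeR, adjusted p = 8.04e-05) and mural cells (0.73 ± 0.17; 0.00301), and ESR2 rose in cumulus cells (1.11 ± 0.40; 0.0239). That ESR2 call was lost without early_CC 2, early_CC 3 or late_CC 3 (edgeR, adjusted p = 0.0509 to 0.0991). In early follicles CTNNB1 was the 1 regulator called between cell types (0.60 ± 0.17 higher in early_CC, edgeR, adjusted p = 0.0178; 0.0549 without early_MGC 5; 13.1% of all genes called), and without late_MGC 3 NR5A1 was also called higher. Against secondary follicles, where 9.1% of all genes were called in early_MGC and 1.99% in early_CC, GATA4 fell (-0.93 ± 0.25, edgeR, adjusted p = 0.0216) and NR5A2 rose (1.12 ± 0.30; 0.0214) in early_MGC, and NR5A2 rose in early_CC (1.40 ± 0.30; 0.0123). These calls were lost without some libraries: GATA4 without secondary_GC 2 or 4 or early_MGC 5, NR5A2 in early_MGC without secondary_GC 1 or 4, and NR5A2 in early_CC without secondary_GC 4 (edgeR, adjusted p = 0.0508 to 0.0915).

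The AMH precursor is cleaved by proprotein convertases, of which 4 were tested. Of all tested genes, 45.2% were called by stage in cumulus cells, 19.1% in mural cells and 39.7% between late_CC and late_MGC. PCSK5 rose in cumulus cells (2.70 ± 0.56, edgeR, adjusted p = 0.000397) and was higher in late_CC than in late_MGC (2.61 ± 0.57; 0.000697). PCSK7 rose in mural cells (1.40 ± 0.22, edgeR, adjusted p = 9.85e-05) and was lower in late_CC than in late_MGC (-0.80 ± 0.22; 0.00534). FURIN and PCSK6 were called in none of the 4 antral comparisons. In early_CC against secondary_GC, where 1.99% of all genes were called, 1 of the 4 fell. This was PCSK5 (-2.51 ± 0.58, edgeR, adjusted p = 0.0196), a call lost without secondary_GC 2 or 3 or early_CC 3 or 4 (0.0566 to 0.0829). Without late_MGC 3, PCSK5 was called lower in early_MGC as well, where 13.4% of all genes were called.

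Genes that depend on follicle-stimulating hormone were checked because AMH is known to dampen that response. FSHR was called in none of the 8 comparisons with all 24 libraries, with group means of 260.1 to 359 CPM. Without late_MGC 3 it was called higher in late_MGC than in early_MGC (0.52 ± 0.19, edgeR, adjusted p = 0.0424; 24.1% of all genes called). CYP19A1, the aromatase that makes oestradiol, rose in cumulus cells from 11.9 to 39.9 CPM on average (1.73 ± 0.66, edgeR, adjusted p = 0.0368), where 45.2% of all genes were called. That call was lost without any of early_CC 1, 2, 3 or 5 or late_CC 2, 4 or 5 (edgeR, adjusted p = 0.0561 to 0.0751). CYP19A1 was also called higher in late_CC than in secondary_GC, where 46% of all genes were called. Without late_MGC 3 it was called higher than in secondary_GC in early_MGC, late_MGC and late_CC. In these 13.4%, 35.7% and 50.3% of all genes were called. LHCGR had at most 0.0892 CPM on average in any group and was not tested.

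**Figure D5:**
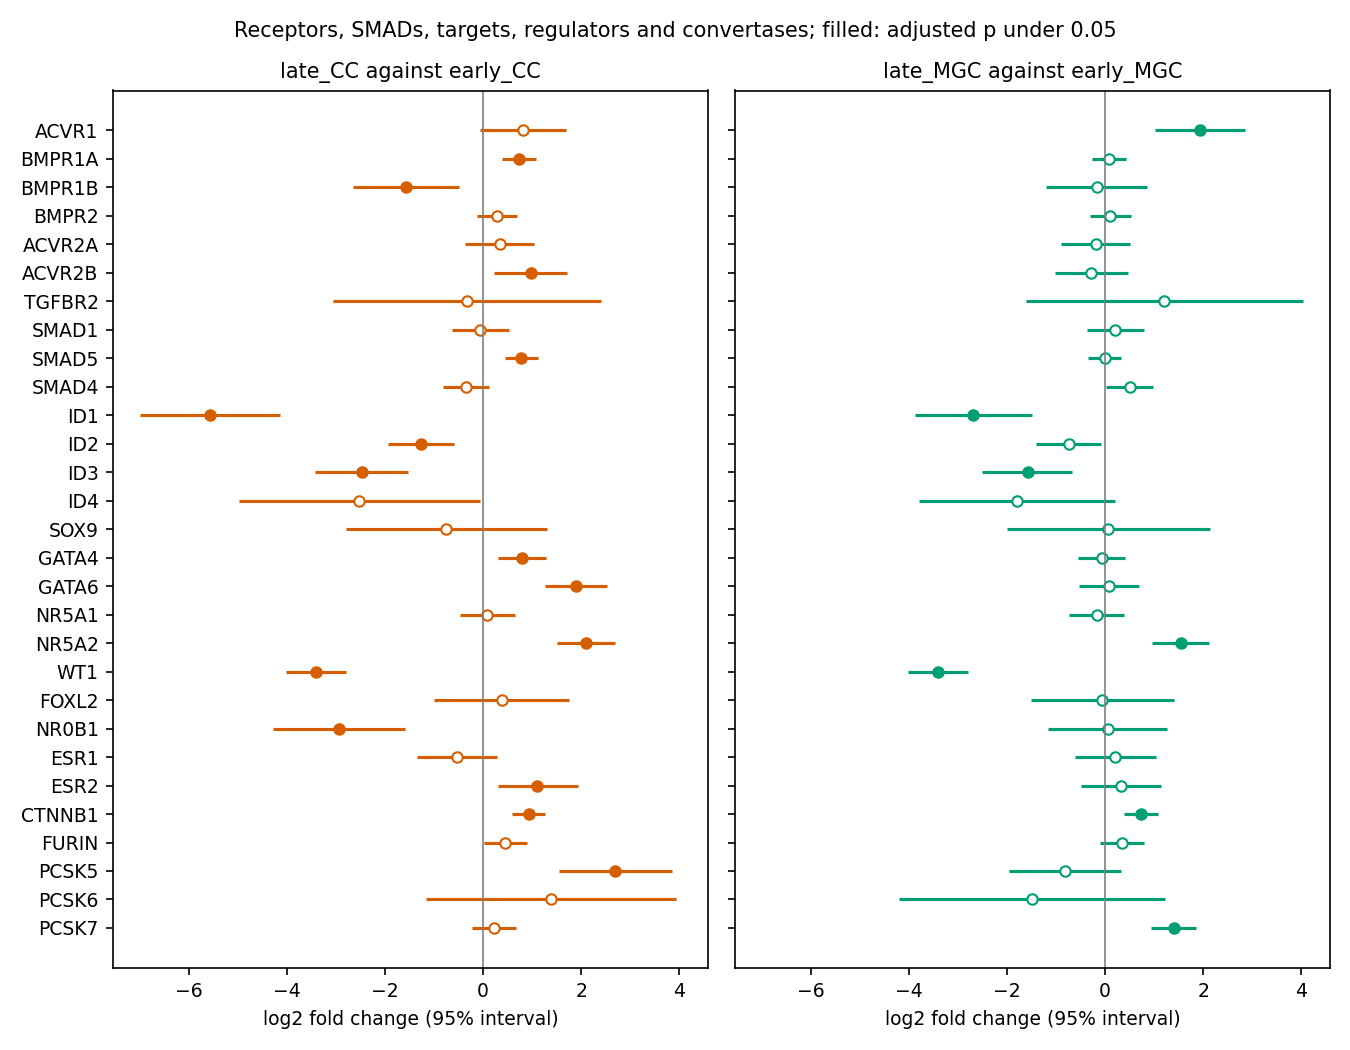
Log2 fold changes with 95% intervals from early to late antral follicles in cumulus cells (left) and mural cells (right) for tested receptors, SMADs, ID targets, regulators and convertases; filled points have an adjusted p under 0.05. WT1 is at -3.40 in both panels and ID1 at -5.57 and -2.69.

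The genes most like each member over the 24 libraries were found by Pearson's r of log2 CPM among 10791 genes with a symbol and a mean of at least 1 CPM, as a description only. Libraries of a group share their stage, so these values largely follow the group means. For AMH they were TLL2 (0.972), JAK3 (0.954), STRA6 (0.949), TCEA3 (0.946) and TOX2 (0.943). None of these 5 stayed among the first 5 without late_MGC 3, where they had r = 0.674 to 0.856 and STX3 led with 0.935. For AMHR2 they were COLEC11 (0.941), EXOC3L1 (0.940), PHLDB1 (0.925), PCSK1N (0.913) and RAMP1 (0.912), and the first 3 stayed the first 3 without that library. COLEC11 averaged 41.7, 18.4, 23.1, 1.12 and 0.436 CPM in secondary_GC, early_CC, early_MGC, late_CC and late_MGC, so like AMHR2 it was low in both late groups.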

How the data were processed

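The deposited values are raw read counts by gene in 24 libraries, beside each gene's summed exon length. Per the file headers, the authors counted with featureCounts 2.0.0 on exons of an Ensembl annotation of ARS-UCD1.2, without strand. Earlier steps named in the submitters' processing notes are fastp 0.20.0, HISAT2 2.1.0 and SAMtools 1.10. Symbols were assigned by the best reciprocal match of gene spans to RefSeq on ARS-UCD2.0 (overlap of at least 0.5 of the union). All 75 genes of the lists were found, 7 of them by at least 0.9 of the shorter span lying inside the other. These 7 were BMPR1A, BMPR1B, ID3, ID4, BMP2, ZAR1 and ZP2, with overlaps of 0.259 to 0.491 of the union. A single name can be wrong. Libraries of secondary_GC and late_MGC are numbered by column order, since their column names do not match single titles.

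CPM are counts divided by the library total, times 1000000. Tests used edgeR 4.0.16 in R 4.3.3 (quasi-likelihood, robust, TMM scaling, filterByExpr) with all 24 libraries in 1 fit by group, over 14298 genes; SEs were derived from the F statistic and the fold change. The script was tested on simulated counts. Alternatives were RLE scaling, no filter, a mean of at least 10 CPM, DESeq2 1.42.0, limma-voom 3.58.1, the compared groups alone, a replicate block and libraries left out. Reads carry no molecular identifiers, so counts understate the error.

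The members, the gene lists and the tests were chosen with earlier results of these data known. By the naming rule, the text gives AMH and AMHR2 in every library, their neighbours, list members called in a described comparison, a fixed set of regulators and receptors, and the 5 genes most like each member. The values of 1 regulator are not reported here, although the counts over its list include it.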

Additional observations from a re-analysis of the deposited data

Results flagged for a closer look

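Single libraries far from the others of their group were looked for in 33 genes, over 165 gene and group combinations, by the gap to the nearest library as a share of the group's range. Chance gives such a gap in about 1 in 20 groups. There were 20, of which 10 were late_MGC 3 and 5 late_CC 3. In late_MGC 3, AMH was low (gap 0.902 of the range), as were FSHR (0.925), CYP19A1 (0.897), FOXL2 (0.866), JSRP1 (0.955), NR0B1 (0.856), NR5A1 (0.852) and SMAD4 (0.779), while BMP2 (0.808) and BMP4 (0.910) were high. In late_CC 3, CYP19A1 (0.885), GATA4 (0.727) and NR5A2 (0.71) were low, and BMP2 and ID4, at 0 in the other late_CC libraries, had 1.66 and 0.208 CPM (gap 1.0). The others were FOXL2 at 0 in early_MGC 4 (0.783), GATA4 high in early_CC 3 (0.817), ID1 low in secondary_GC 4 (0.843), ID3 high in early_MGC 5 (0.754) and SP1 low in early_CC 5 (0.785).

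The change from early to late antral follicles differed between cumulus and mural cells for 10 of the 40 tested list and neighbour genes, by the interaction test of edgeR, which called 31.4% of all tested genes. AMH and AMHR2 were not called. It was more positive in cumulus cells for PCSK5 (3.52, adjusted p = 0.00151), GATA6 (1.82, 0.00201), SMAD5 (0.80, 0.0109), GATA4 (0.87, 0.0481) and BMPR1A (0.65, 0.0358). It was more negative for NR0B1 (-2.98, 0.0115), ID1 (-2.88, 0.0109), PRR13 (-1.27, 0.0133), PCSK7 (-1.17, 0.00559) and SMAD4 (-0.85, 0.0482). Leaving out single antral libraries ended some of these calls (edgeR, adjusted p = 0.0503 to 0.0933). BMPR1A lost its call in 8 of 20 cases, without early_CC 2 or 5, early_MGC 2, 4 or 5, late_CC 4 or 5 or late_MGC 5. GATA4 lost it in 13 and kept it without early_CC 3, early_MGC 1 or 5, late_CC 1 or 3 or late_MGC 1 or 5. SMAD4 lost it in 14 and kept it without early_CC 2 or 5, early_MGC 1 or 4, late_CC 3 or late_MGC 3. Without late_CC 1 the NR0B1 value was -4.15, and without late_MGC 1 that of ID1 was -2.02.

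Reads that the sequencing run assigned to no library, a column of 41567882 counts, held 13077 counts of AMH (314.6 CPM) and 234 of AMHR2 (5.63 CPM). They entered no comparison.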

How the results depend on the processing

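AMHR2 fell in late_MGC and late_CC, against the early antral groups and secondary_GC, under every alternative in which it was tested; with a mean of at least 10 CPM it is not tested. AMH was called in late_CC against late_MGC, and not without a filter (1.48, adjusted p = 0.0815) or with these groups alone (1.56, 0.137); single libraries left out gave 1.24 to 1.76. It gained calls in late_CC against secondary_GC with the groups alone (1.28, edgeR, adjusted p = 0.0115), without late_MGC 3 (1.32) and without the 3 libraries that stood apart (1.53, 1.60e-05). In the same settings it gained them in late_CC against early_CC (0.76, 0.0374; 0.80; 1.01) and in early_CC against early_MGC (0.73, 0.00540; 0.77; 0.71, 0.0344).

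Uncalled differences near 0 changed sign. AMH in late_MGC against early_MGC was -0.04 with RLE scaling and DESeq2, -0.09 at 10 CPM, -0.05 with the groups alone and -0.96 with limma-voom (-0.18 to 0.33 with libraries left out). In late_MGC against secondary_GC it was 0.09 without late_MGC 3 and 0.09 without the 3 libraries (-0.43 to 0.09). In early_MGC against secondary_GC AMH ran from -0.45 to 0.05 and AMHR2 from -0.21 to 0.18. BMP2 in late_MGC against early_MGC was -0.98 without late_MGC 3 and -1.22 without the 3 libraries (-0.98 to 6.09). In late_CC against late_MGC, BMP2 ran from -11.24 to 1.12 and BMP4 from -5.13 to 0.27, the highest values without late_MGC 3.

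The number of genes called in early_CC against secondary_GC, 285, was 148 at 10 CPM, 729 with DESeq2, 964 with the groups alone, 603 with limma-voom, 741 without late_MGC 3 and 1304 without the 3 libraries (150 to 358 with libraries left out). At 10 CPM and with the groups alone, late_MGC against secondary_GC gave 2826 and 2812 genes instead of 4548, and late_MGC against early_MGC 1608 and 1612 instead of 2725. Early_CC against early_MGC gave 1871, 3035 with the groups alone and 1222 to 1761 with libraries left out. Early_MGC against secondary_GC gave 1301, and 516 to 1524. Over the pathway and neighbouring genes called, 1082 of the recomputed values kept their call, 122 lost it and 7 reversed. These totals count the fit without late_MGC 3 both as its own alternative and among the single libraries left out.

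Same-numbered libraries correlated in their deviations at r = 0.203 to 0.242 for number 1 and at -0.147 to 0.182 for the others, so not every pair passed 0.1 and the numbers were not taken to pair the samples. A replicate block could be fitted for cumulus cells by stage and for the cell types of early antral follicles. Between early_CC and early_MGC the block gave 3405 genes and AMH 0.70 (edgeR, adjusted p = 0.00902). These groups alone, without the block, gave 3035 genes and AMH 0.73 (edgeR, adjusted p = 0.00540). Between late_CC and early_CC AMH was 0.69 under the block and was not called (edgeR, adjusted p = 0.0719). With those groups alone it was 0.76 and called (edgeR, adjusted p = 0.0374). GATA4 in late_CC against early_CC was 0.73 (0.0551) under the block. The cause of these shifts was not tested. Depth limits AMHR2 in late follicles, at 4 to 39 counts a library.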
